A study of Mus musculus with 24 samples.

Results

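Messenger RNA of 10 genes for matricellular and related matrix proteins was followed in the infarct tissue of mouse hearts: the thrombospondins Thbs1, Thbs2, Thbs3, Thbs4 and Comp (thrombospondin 5), tenascin C (Tnc), periostin (Postn), the transforming growth factor beta-induced protein (Tgfbi), Sparc (osteonectin) and fibronectin (Fn1). The genes were chosen by symbol, through the transcript accession of each array probe, and all 10 were among the 15875 genes tested. They were covered by 18 probes, each well above background on all 24 arrays, and the brightest probe of a gene stood for it. Tissue came from male C57BL6/J mice, from the part of the anterior left ventricular wall that had been at risk while the left anterior descending artery was occluded for 45 min. Samples were taken after 24, 48 or 168 h of reperfusion, with 4 arrays in each of 6 groups. The IGF1 groups received recombinant insulin-like growth factor 1, a circulating mediator of growth hormone action, as 40 ng/g under the skin at reperfusion and then 1 µg/g per day by pump for up to the first 3 days. The pump had therefore stopped before the tissue of 168 h was taken. The vehicle groups received phosphate-buffered saline with 0.1% bovine serum albumin. Every vehicle label names 45 min of ischemia, whereas the design text of the series mentions sham-operated controls, and the sample labels were followed here. All groups had thus been infarcted, and no uninjured heart served as a reference.

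Matricellular proteins are secreted into the extracellular matrix, where they bind cells, growth factors and matrix fibres more than they bear load. Most are scarce in the resting adult heart and are made again during wound healing, where they influence inflammation, fibroblast migration, collagen assembly and scar strength. Fibronectin is a structural glycoprotein of the provisional matrix that other matrix proteins assemble on.

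A level is given here as log2 of the array's processed fluorescence minus the 75th percentile of that array, so it can be compared between arrays for 1 probe but not between probes. The share of spots well above background was 52.8 to 62.9%, 0 spots were saturated, and Pearson's r between arrays of the same group was 0.983 to 0.993 (across genes, which are not replicates of each other). No animal is named in the labels, so the p-values cover the spread among these separate samples, which may be technical in part. The cardiomyocyte genes Myh6, Tnnt2, Actc1 and Ryr2 were well above background on 24 of 24 arrays. In whole tissue, fewer cells of a type and less RNA per cell cannot be told apart. Differences were tested with limma over all 15875 genes, and a gene was called where its Benjamini-Hochberg adjusted p was under 0.05.

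In vehicle hearts the 10 genes separated by time of highest level. Comp, Thbs2, Thbs3, Thbs4, Postn and Fn1 were highest at 168 h, Tgfbi and Tnc were lowest at 168 h, and the brightest probes of Thbs1 and Sparc changed little between 24 and 168 h. From 24 to 48 h, 5 of the 10 genes were called and all 5 rose, beside 22.7% of all genes called and 11.2% called higher. From 48 to 168 h, 8 of 10 were called, 6 higher and 2 lower, beside 53.2% of all genes called, 25% higher and 28.1% lower. Between 24 and 168 h, again 6 rose and 2 fell, beside 60.2% of all genes called, 28.1% higher and 32.1% lower. With most genes of the tissue moving between 24 and 168 h, the count of 8 of 10 is read against that share, and the size of the change is the more informative value. The 3 comparisons share arrays, as do those of IGF1 with vehicle, so their counts are not independent of each other. The median difference from 24 to 168 h was 2.03 on the log2 scale for the 10 genes and -0.03 for all genes tested.

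**Figure D1:**
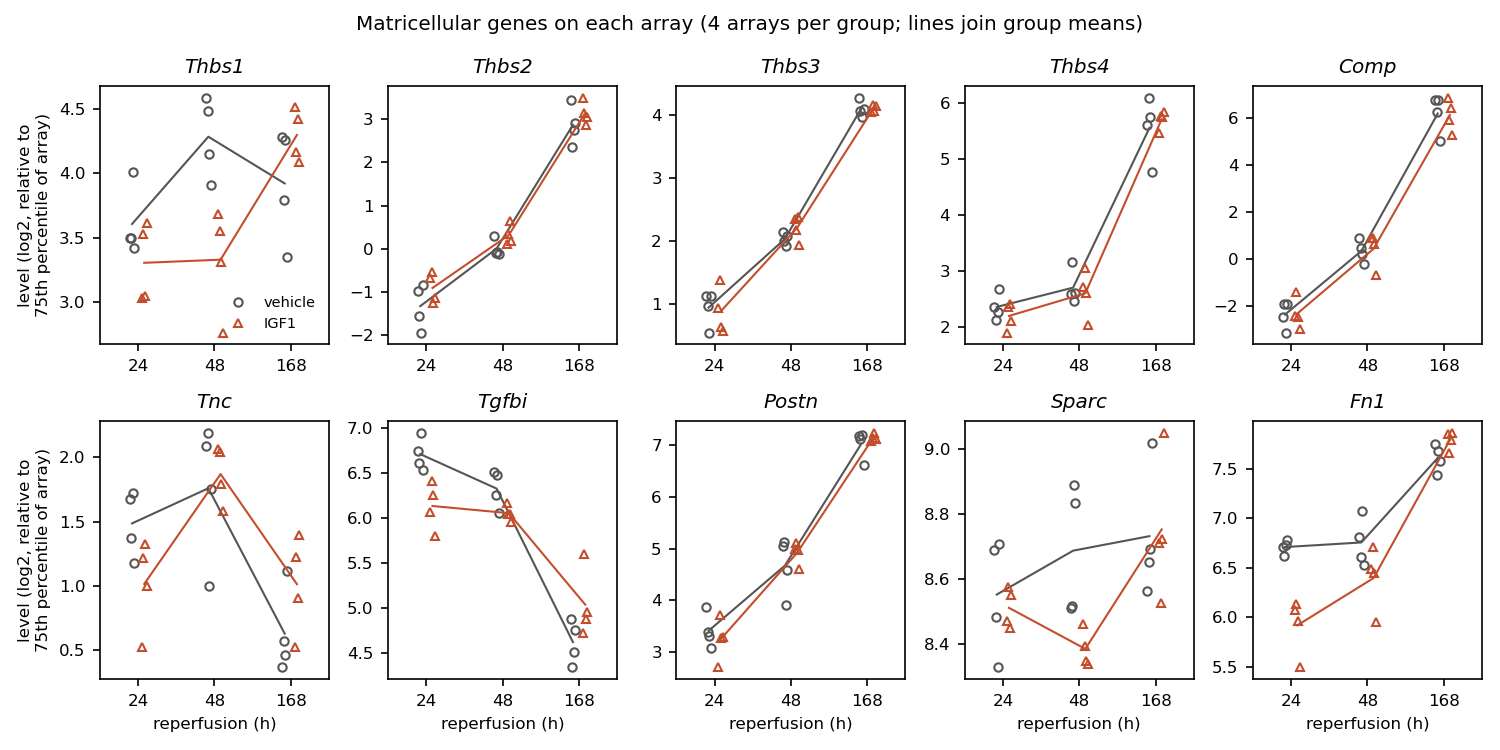
Level of the 10 genes on each of the 24 arrays (log2 relative to the array's 75th percentile; the 3 times in h are spaced evenly), with circles for vehicle, triangles for IGF1 and lines through the group means of 4 arrays. Thbs2, Thbs3, Thbs4, Comp and Postn climb in both treatments, Tgfbi falls, and Fn1 and Tgfbi of IGF1 hearts lie below vehicle at 24 h.

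Comp, a pentameric thrombospondin best known from cartilage and tendon, where it organises collagen fibres, showed the largest change of the 10. On the vehicle arrays it stood at -2.50, -1.93, -3.14 and -1.92 at 24 h, at 0.88, 0.46, 0.23 and -0.21 at 48 h, and at 6.77, 6.25, 6.78 and 5.03 at 168 h. The 3 sets of arrays did not overlap at any step. Comp rose by 2.71 ± 0.45 (SE) from 24 to 48 h and by 5.87 ± 0.45 from 48 to 168 h, which together make it 383-fold higher at 168 than at 24 h (limma adjusted p = 6.55e-12). In IGF1 hearts it rose by 8.48 ± 0.45 over the same span, or 357-fold (limma adjusted p = 6.85e-12). The lowest value of each treatment at 168 h, 5.03 and 5.29, came from the array numbered 4, which lay on another slide than the other 3.

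Thbs3 and Thbs4 belong with Comp to the pentameric thrombospondins, and Thbs4 is a matrix protein known to accumulate in strained and injured hearts. Thbs3 in vehicle hearts stood at 1.14, 0.97, 0.55 and 1.13 at 24 h, at 2.15, 2.00, 1.92 and 2.08 at 48 h, and at 4.28, 4.08, 3.97 and 4.10 at 168 h. It rose at both steps, by 1.09 ± 0.15 and 2.07 ± 0.15 (limma adjusted p = 5.58e-05 and 1.82e-09), with no overlap of arrays. Thbs4 stood at 2.35, 2.12, 2.27 and 2.69 at 24 h, at 2.59, 3.16, 2.46 and 2.60 at 48 h, and at 5.61, 6.09, 5.75 and 4.76 at 168 h. Its arrays of 24 and 48 h overlapped, and all 4 of 168 h lay above both. The difference from 24 to 48 h, 0.34 ± 0.24, was not called (limma adjusted p = 0.318), while the difference from 48 to 168 h was 2.85 ± 0.24, or 7.23-fold (limma adjusted p = 9.06e-09). Thbs4 was thus the one member of the 5 rising most strongly whose first step was not called.

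Thbs2, a trimeric thrombospondin that restrains vessel growth and affects collagen fibril shape, moved early and late. Its vehicle levels were -0.99, -1.55, -1.94 and -0.84 at 24 h, 0.28, -0.09, -0.07 and -0.11 at 48 h, and 3.44, 2.36, 2.76 and 2.92 at 168 h. No arrays of adjacent times overlapped. The rise was 1.33 ± 0.24 to 48 h and 2.87 ± 0.24 to 168 h, in all 18.4-fold (limma adjusted p = 1.79e-11 for 168 against 24 h).

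Postn, a protein of activated fibroblasts that binds integrins and supports collagen crosslinking, stood at 3.87, 3.39, 3.30 and 3.07 at 24 h, at 5.06, 5.12, 3.91 and 4.60 at 48 h and at 7.18, 7.11, 7.19 and 6.62 at 168 h in vehicle hearts. The lowest array of 48 h lay just above the highest of 24 h, and the 168 h arrays stood well clear. Postn rose by 1.26 ± 0.24 and then by 2.36 ± 0.24 (limma adjusted p = 0.00082 and 7.93e-08), in all 12.3-fold. Its 3 probes gave differences of 3.62, 3.63 and 3.99 from 24 to 168 h.

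Fn1 rose late and by less. Its vehicle levels were 6.70, 6.62, 6.73 and 6.78 at 24 h and 6.81, 6.61, 7.08 and 6.52 at 48 h, which overlap, and 7.74, 7.43, 7.67 and 7.58 at 168 h, which lie above both. The difference was 0.05 ± 0.15 from 24 to 48 h and 0.85 ± 0.15 from 48 to 168 h, or 1.80-fold (limma adjusted p = 0.855 and 6.56e-05).

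Tgfbi is a relative of periostin with the same fasciclin repeats, induced by transforming growth factor beta and also made by macrophages. Unlike Postn it fell: 6.74, 6.60, 6.94 and 6.53 at 24 h, 6.51, 6.26, 6.47 and 6.05 at 48 h and 4.87, 4.34, 4.50 and 4.75 at 168 h in vehicle hearts. The 4 arrays of 48 h already lay below those of 24 h, by 0.38 ± 0.17, a difference that was not called (limma adjusted p = 0.106). From 48 to 168 h Tgfbi fell by 1.71 on the log2 scale, with an SE of 0.17, or 3.26-fold (limma adjusted p = 6.77e-08).

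Tnc, a hexameric glycoprotein that loosens cell adhesion at the border of healing infarcts, was highest at 48 h. Its vehicle levels were 1.68, 1.37, 1.72 and 1.17 at 24 h, 2.09, 2.19, 1.00 and 1.75 at 48 h and 0.36, 0.57, 0.46 and 1.11 at 168 h. By this brightest probe the array numbered 3 at 48 h, at 1.00, lay below all arrays of 24 h and among those of 168 h. The rise to 48 h, 0.27 ± 0.25, was not called (limma adjusted p = 0.459), and Tnc then fell by 1.13 with an SE of 0.25, or 2.19-fold (limma adjusted p = 0.0006). A dimmer second probe of Tnc gave a rise of 0.82 ± 0.25 and a fall of 1.73 in the same arrays, a larger change each way. By the dimmer probe the array numbered 3 was the highest of 48 h, at 1.50, so its low place depends on the probe. The 48 h arrays of that probe, at 0.43 to 1.50, all lay above those of 24 h, at -0.18 to 0.16.

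Thbs1, the trimeric thrombospondin released by platelets that activates latent transforming growth factor beta, stood at 3.49, 3.50, 4.01 and 3.42 at 24 h, at 4.59, 4.49, 4.15 and 3.91 at 48 h, and at 4.29, 3.79, 4.26 and 3.35 at 168 h in vehicle hearts. By this brightest probe the groups of neighbouring times overlapped. By a dimmer second probe the vehicle arrays of 24 h, at 1.59 to 1.95, and of 48 h, at 2.09 to 2.66, did not. Only the first difference was called, a rise of 0.68 ± 0.23 or 1.60-fold (limma adjusted p = 0.0352). It lost its call without any 1 of 5 arrays, those numbered 1, 2 and 4 at 24 h and 1 and 2 at 48 h (limma adjusted p = 0.0743 to 0.107), and with no filter on dim probes (0.0593).

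Sparc, a collagen-binding protein needed for procollagen processing, gave different answers from its 2 probes. By the brighter probe the vehicle means were 8.55 ± 0.18 (SD, n = 4), 8.69 ± 0.20 and 8.73 ± 0.20 at 24, 48 and 168 h, and none of the 3 differences was called. By the dimmer probe they were 6.42 ± 0.22, 6.84 ± 0.22 and 7.92 ± 0.20, a difference of 1.50 ± 0.14 from 24 to 168 h against 0.18 ± 0.12 by the brighter probe. When all probes of every gene were tested, that of the dimmer probe was called (limma adjusted p = 1.47e-08) and that of the brighter probe was not (0.228). The means of both probes were higher at 168 than at 24 h, but the size of the rise of Sparc depends on the probe, and quantile normalization also brought the brighter probe past the threshold (0.25, limma adjusted p = 0.00092). In IGF1 hearts the brighter probe differed by -0.13 ± 0.12 from 24 to 48 h, which turned to 0.21 with quantile normalization (limma adjusted p = 0.0095).

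**Figure D2:**
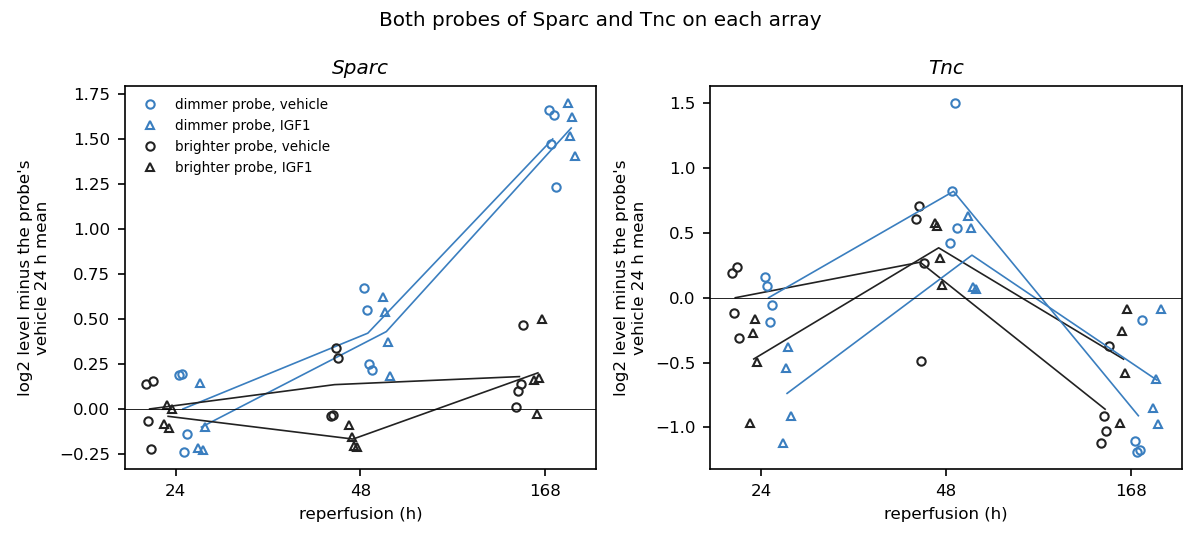
Log2 level of both probes of Sparc and of Tnc on each array, minus the probe's own vehicle mean at 24 h (times in h, spaced evenly), with black for the brighter and blue for the dimmer probe, circles for vehicle and triangles for IGF1. The dimmer Sparc probe climbs by 1.50 from 24 to 168 h in vehicle hearts while the brighter one moves by 0.18, and both Tnc probes peak at 48 h.

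In IGF1 hearts the comparison over time gave 6 of 10 genes called from 24 to 48 h, beside 37.6% of all genes, 16.3% higher and 21.3% lower. From 48 to 168 h it was 10 of 10, beside 48.8% of all genes, 22.6% higher and 26.2% lower. From 24 to 168 h it was 8 of 10, 7 higher and 1 lower, beside 58.5% of all genes, 24.6% higher and 33.9% lower. From 24 to 48 h all 6 rose: Comp by 2.77, Postn by 1.67, Thbs3 by 1.32, Thbs2 by 1.23, Tnc by 0.86 and Fn1 by 0.48. The Fn1 rise was not called without the array numbered 4 at 24 h or that numbered 2 at 48 h (limma adjusted p = 0.074 and 0.0662), nor with the slide as a fixed block (0.0613) or with the arrays of the 2 groups alone (0.089). At the next step 8 rose and 2 fell, Tgfbi by 1.02 and Tnc by 0.86. Thbs1 was among those that rose, by 0.97 ± 0.23 (limma adjusted p = 0.00132), with arrays at 3.69, 3.55, 3.31 and 2.76 at 48 h and at 4.52, 4.17, 4.42 and 4.09 at 168 h. Sparc rose by 0.37 ± 0.12 (limma adjusted p = 0.0136), a call lost without the array numbered 4 at 168 h (0.066). Tnc was at the same mean level of 1.01 at 24 and at 168 h, with SD of 0.36 and 0.39.

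**Figure D3:**
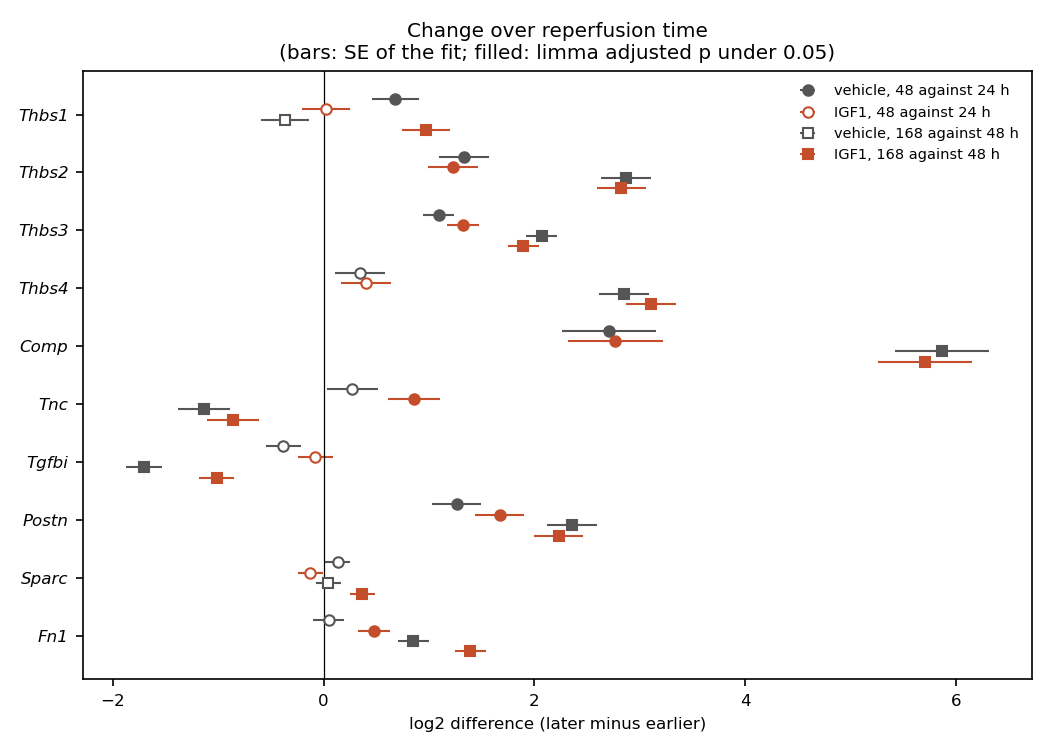
Log2 difference between neighbouring times for the 10 genes (later minus earlier; circles for 48 against 24 h, squares for 168 against 48 h; grey for vehicle, orange for IGF1; bars are the SE of the fit and filled symbols have a limma adjusted p under 0.05). Comp changes most at both steps, and only Tgfbi and Tnc have filled symbols left of 0.

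The arrays came from 4 slides, which held the times unevenly: in both treatments 3 of the 4 arrays of 168 h were on slide 1 and the other on slide 4, while the 24 h arrays were spread over all 4 slides. Within slides 1 and 4 the difference of Comp from 24 to 168 h was 9.10 and 6.96 with vehicle and 8.86 and 8.30 with IGF1. That of Thbs4 was 3.47 and 2.07 with vehicle and 3.77 and 3.73 with IGF1. In vehicle hearts Tgfbi differed by -2.17 on slide 1 and -1.78 on slide 4, and Tnc by -1.22 and -0.06. In IGF1 hearts Tnc, with equal group means at 24 and 168 h, was higher at 168 h within both slides, by 0.36 and 0.40. Only slide 4 held vehicle arrays of both 48 and 168 h, 1 of each, so time and slide can hardly be told apart for that step. On it the difference was 5.24 for Comp, 3.03 for Thbs2, 2.16 for Thbs4 and 2.02 for both Thbs3 and Postn. It was 1.05 for Fn1, -1.30 for Tgfbi and -0.64 for Tnc. No slide held IGF1 arrays of both 48 and 168 h. With the slide as a fixed block, the fall of Tnc over that step was 0.50 and the rise of Sparc 0.30, and neither was called (limma adjusted p = 0.206 and 0.08).

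The start regions of genes that moved together are shown for comparison, since 4 of the genes that rose (Postn, Thbs2, Thbs3 and Thbs4) and both that fell have an entry among the RefSeq promoters of build GRCm38.p6. Thbs1, Comp and Fn1 have none in that table. Each line gives the 250 bases before the transcription start, 5′ to 3′ on the gene's strand, with capitals for 3 motifs searched on both strands. The letters TATAAA stand for the TATA box, a core promoter element. The letters CCAAT stand for the box of that name. The GC box, which Sp1-like factors bind, was searched as GGGCGG. These motifs do not overlap each other in the windows shown.
Postn, chr3:54360857-54361106, plus strand: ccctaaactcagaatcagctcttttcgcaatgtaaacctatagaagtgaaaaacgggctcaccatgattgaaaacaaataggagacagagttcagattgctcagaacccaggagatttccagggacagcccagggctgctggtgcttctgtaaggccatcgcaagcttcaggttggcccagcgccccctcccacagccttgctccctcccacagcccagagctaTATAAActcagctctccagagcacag
Thbs2, chr17:14694263-14694512, minus strand: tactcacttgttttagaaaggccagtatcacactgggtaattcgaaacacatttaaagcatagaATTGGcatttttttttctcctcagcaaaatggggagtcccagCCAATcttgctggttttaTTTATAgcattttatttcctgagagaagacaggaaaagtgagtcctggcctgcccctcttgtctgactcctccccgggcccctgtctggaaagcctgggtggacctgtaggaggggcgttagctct
Thbs3, chr3:89214930-89215179, plus strand: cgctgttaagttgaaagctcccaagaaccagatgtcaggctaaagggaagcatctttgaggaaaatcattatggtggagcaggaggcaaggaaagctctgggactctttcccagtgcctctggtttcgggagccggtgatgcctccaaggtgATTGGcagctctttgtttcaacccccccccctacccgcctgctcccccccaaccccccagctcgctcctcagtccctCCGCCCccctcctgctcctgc
Thbs4, chr13:92794819-92795068, minus strand: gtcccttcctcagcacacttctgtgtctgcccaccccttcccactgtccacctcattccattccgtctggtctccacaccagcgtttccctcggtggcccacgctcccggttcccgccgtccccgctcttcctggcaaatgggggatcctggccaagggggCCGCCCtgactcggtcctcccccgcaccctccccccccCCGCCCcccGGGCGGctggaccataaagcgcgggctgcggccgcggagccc
Tgfbi, chr13:56609336-56609585, plus strand: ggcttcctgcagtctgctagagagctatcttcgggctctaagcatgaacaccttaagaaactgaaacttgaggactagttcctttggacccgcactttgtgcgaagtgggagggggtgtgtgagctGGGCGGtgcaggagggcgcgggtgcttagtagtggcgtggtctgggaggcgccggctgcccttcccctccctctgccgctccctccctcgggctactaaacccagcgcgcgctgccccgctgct
Tnc, chr4:64047016-64047265, minus strand: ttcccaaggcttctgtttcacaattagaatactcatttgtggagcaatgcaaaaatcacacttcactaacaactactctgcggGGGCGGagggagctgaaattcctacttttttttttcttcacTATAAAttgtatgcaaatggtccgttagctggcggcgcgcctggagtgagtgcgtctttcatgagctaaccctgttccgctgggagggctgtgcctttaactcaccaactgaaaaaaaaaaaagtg

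Postn and Tnc each have 2 listed starts. For Postn the window that holds a motif is shown, chosen after the search, and the window of its other start holds none of the 3. Both Tnc windows hold the same motifs, and the more upstream is shown. The Postn window shown has TATAAA beginning 26 bases before the start and the Tnc window 126 bases before it, both on the gene's strand, and the Thbs2 window holds it on the opposite strand. The GC box occurred in the windows of Thbs3, Thbs4, Tgfbi and Tnc, and Thbs4 had 3 copies. Among all 32851 promoter windows of the table, 12.4% held TATAAA, 33.8% CCAAT and 32.7% GGGCGG. None of the 3 motifs was in all 4 windows of the rising genes, and both TATAAA and the GC box were in windows of rising and of falling genes. A match of letters is a description and shows no binding.

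Treatment with IGF1 was compared with vehicle at each time. At 24 h, 2 of the 10 genes were called, both lower with IGF1, Fn1 and Tgfbi, beside 16% of all genes called, 8.76% higher and 7.26% lower. The share of 2 in 10 is near that background. The median difference of the 10 genes was -0.16, beside 0.01 for all genes.

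Fn1 stood at 6.70, 6.62, 6.73 and 6.78 on the vehicle arrays of 24 h and at 6.08, 6.14, 5.96 and 5.49 on the IGF1 arrays. All 4 IGF1 arrays lay below all 4 vehicle arrays, and the array numbered 4 was the lowest. The difference was -0.79 ± 0.15 (SE), or 1.73-fold lower (limma adjusted p = 0.00248), and it was lower within each of the 4 slides, by 0.48 to 1.29. The other 2 probes of Fn1 gave -0.90 and -1.01.

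Tgfbi stood at 6.74, 6.60, 6.94 and 6.53 with vehicle and at 6.06, 6.40, 6.25 and 5.80 with IGF1 at 24 h, again with no overlap of arrays. The IGF1 arrays of 8.31% of all genes lay all below the vehicle arrays at 24 h, and those of 10.1% all above. The difference of Tgfbi was -0.58 ± 0.17, or 1.49-fold lower (limma adjusted p = 0.0252), and lower on all 4 slides, by 0.20 to 0.73. Its call was lost without vehicle array 1 or 3 or IGF1 array 1 or 4 (limma adjusted p = 0.0533, 0.0774, 0.0736 and 0.0727) and with only the 8 arrays of the 2 groups in the fit (0.0594).

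The other 8 genes were not called at 24 h. Tnc stood at 1.68, 1.37, 1.72 and 1.17 with vehicle and at 0.52, 1.22, 1.32 and 0.99 with IGF1, which overlap, a difference of -0.47 ± 0.25 (limma adjusted p = 0.203) that was negative within each of the 4 slides. With the mean of its probes in place of the brightest, the difference was -0.60 and was called (limma adjusted p = 0.0482). Thbs2 differed by 0.42 ± 0.24 (limma adjusted p = 0.242) and Thbs1 by -0.30 ± 0.23 (0.396). For Tnc and Thbs1 the overlap of arrays depended on the probe. By its dimmer probe Tnc stood at -0.18 to 0.16 with vehicle and at -1.11 to -0.37 with IGF1. Thbs1 by its dimmer probe stood at 1.59 to 1.95 with vehicle and at 1.10 to 1.54 with IGF1. Such separation with IGF1 below held for 8.31% of all genes. For Comp, with the widest spread, the 95% interval ran from -0.89 to 0.97, so these arrays leave room for a change of nearly 1 log2 unit either way.

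At 48 h none of the 10 genes was called, beside 0.0126% of all genes (2 of 15875). Of the 10, 3 had an unadjusted limma p under 0.05, Thbs1, Sparc and Fn1. Among the p-values of all 15875 genes these ranked 27, 634 and 812, so many other genes had p-values as small. Thbs1 had the smallest p of the 10. Its vehicle arrays stood at 4.59, 4.49, 4.15 and 3.91 and its IGF1 arrays at 3.69, 3.55, 3.31 and 2.76, so that the arrays did not overlap, which held for 3.33% of all genes in this direction and 2.57% in the other. The difference was -0.96 ± 0.23, or 1.94-fold lower (limma adjusted p = 0.209), the 27th smallest p of 15875 genes, and its second probe gave -1.20. Within the 2 slides that held both treatments the difference of Thbs1 was -1.12 and -0.92. Sparc also did not overlap, at 8.51, 8.52, 8.89 and 8.83 with vehicle and at 8.46, 8.39, 8.35 and 8.34 with IGF1, a difference of -0.30 ± 0.12 (limma adjusted p = 0.461) by the brighter probe and of 0.01 ± 0.14 by the dimmer one. Fn1 differed by -0.36 ± 0.15 (limma adjusted p = 0.491) and Tgfbi by -0.27 ± 0.17 (0.66).

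At 168 h none of the 10 genes was called, beside 0% of all genes. Tgfbi alone had an unadjusted limma p under 0.05, which ranked 301 among the 15875 genes. None of the 10 had separate groups of arrays, beside 1.11% of all genes with IGF1 all above and 1.54% with IGF1 all below. Tgfbi stood at 4.87, 4.34, 4.50 and 4.75 with vehicle and at 4.71, 5.59, 4.88 and 4.95 with IGF1, and the IGF1 array numbered 2 was the highest of the 8. The difference was 0.42 ± 0.17 (limma adjusted p = 0.9998). Tnc differed by 0.39 ± 0.25, Thbs1 by 0.38 ± 0.23 and Fn1 by 0.18 ± 0.15. The 95% intervals of the strongest risers were -0.99 to 0.87 for Comp, -0.37 to 0.61 for Postn, -0.34 to 0.65 for Thbs4, -0.22 to 0.77 for Thbs2 and -0.31 to 0.31 for Thbs3. Averaged over the 3 times, none of the 10 was called, beside 0.472% of all genes, and Fn1 came nearest with -0.32 ± 0.09 (limma adjusted p = 0.0993). Of the 10, 3 had an unadjusted limma p under 0.05, Fn1, Thbs2 and Thbs1, which ranked 194, 1141 and 1538 among the 15875 genes.

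**Figure D4:**
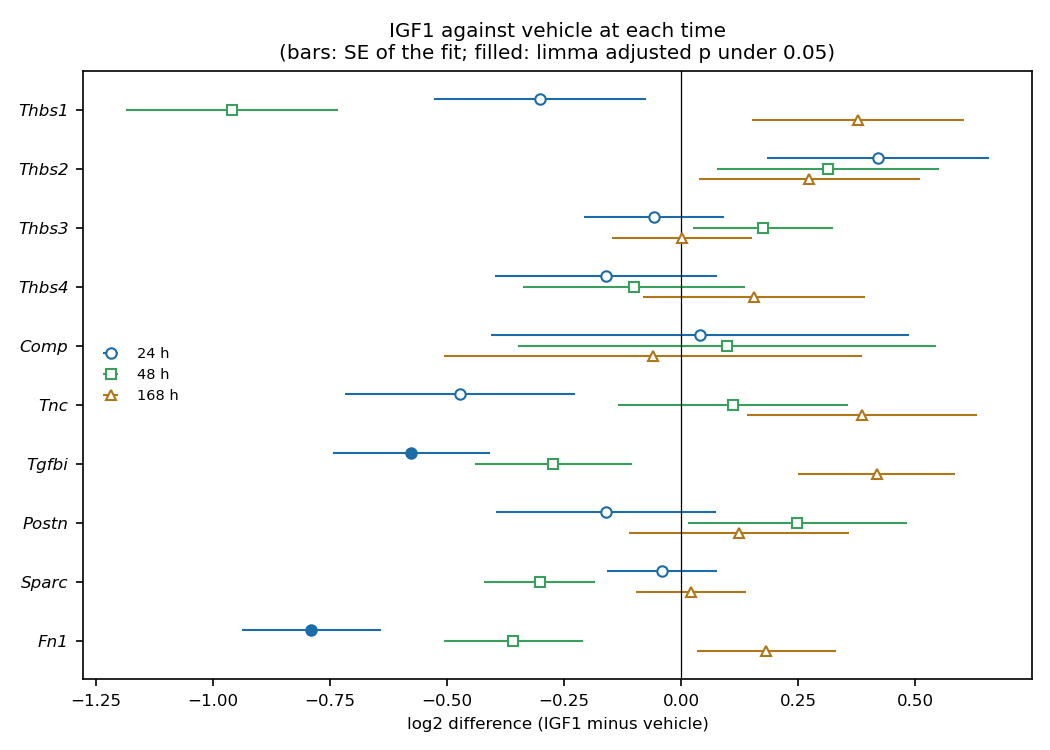
Log2 difference of IGF1 minus vehicle for the 10 genes at 24 h (circles), 48 h (squares) and 168 h (triangles), with the SE of the fit as bars and filled symbols for a limma adjusted p under 0.05. Only Fn1 and Tgfbi at 24 h are filled, at -0.79 and -0.58, and Thbs1 at 48 h lies farthest from 0 at -0.96.

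Whether the IGF1 effect differed between times was tested with the F-test of the interaction, which called 3 of the 10 genes, Fn1 (limma adjusted p = 0.0256), Tgfbi (0.0375) and Thbs1 (0.0415), beside 5.6% of all genes. For Fn1 the effect moved from -0.79 at 24 h to 0.18 at 168 h, a change of 0.97 ± 0.21 (limma adjusted p = 0.00833), and for Tgfbi from -0.58 to 0.42, a change of 0.99 ± 0.24 (0.0144). Both changes were called, beside 11.1% of all genes for this contrast. For Thbs1 the widest change lay between 48 and 168 h, from -0.96 to 0.38, and was not called by itself (1.34 ± 0.32, limma adjusted p = 0.19). The F-test calls had narrow margins. That of Fn1 was lost without vehicle array 2 of 168 h (0.0547), that of Tgfbi without any 1 of 11 arrays (0.05004 to 0.0815) and that of Thbs1 without any 1 of 13 (0.0534 to 0.0783). For Comp, Thbs2, Thbs3, Thbs4 and Postn the same test gave adjusted p-values of 0.701 to 0.987.

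Markers of cell types moved with these results, and their part in them was not tested. None of the 10 genes is in a marker list. From 24 to 168 h in vehicle hearts, 28.1% of all genes were called higher and 32.1% lower. The summed level of 10 fibroblast markers, as multiples of the 75th percentile, was 154 to 216 on the vehicle arrays of 24 h, 309 to 363 at 48 h and 710 to 775 at 168 h, and 9 of the 10 rose from 24 to 168 h. The sum of 8 markers of activated fibroblasts went from 73.3 to 98.8 at 24 h to 221 to 341 at 168 h, with 7 of 8 higher. Such sums add different probes, so the brightest genes weigh most. Ltbp2 of this list went from a mean log2 level of 3.83 to 6.77, and Col1a1 of the fibroblast list from 4.71 to 7.60. Both genes appear again in the lists of matrix genes below. All 10 measured markers of cartilage and tendon rose as well. Their sum went from 7.86 to 9.94 at 24 h to 43.7 to 54.1 at 168 h. Of these 10, 6 were well above background on 0 of the 4 vehicle arrays of 24 h. At 168 h this held for 0 of the 10. Markers so dim at 24 h may have passed the filter on dim probes through the later arrays. For such markers a rise was partly set by the filter. The count of 10 of 10 thus cannot be weighed against the share of all genes. The 7 neutrophil markers summed to 319 to 491 at 24 h and 80.1 to 129 at 168 h, with 5 lower. The 9 macrophage and monocyte markers summed to 163 to 186 and 177 to 218, with 4 higher and 4 lower.

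**Figure D5:**
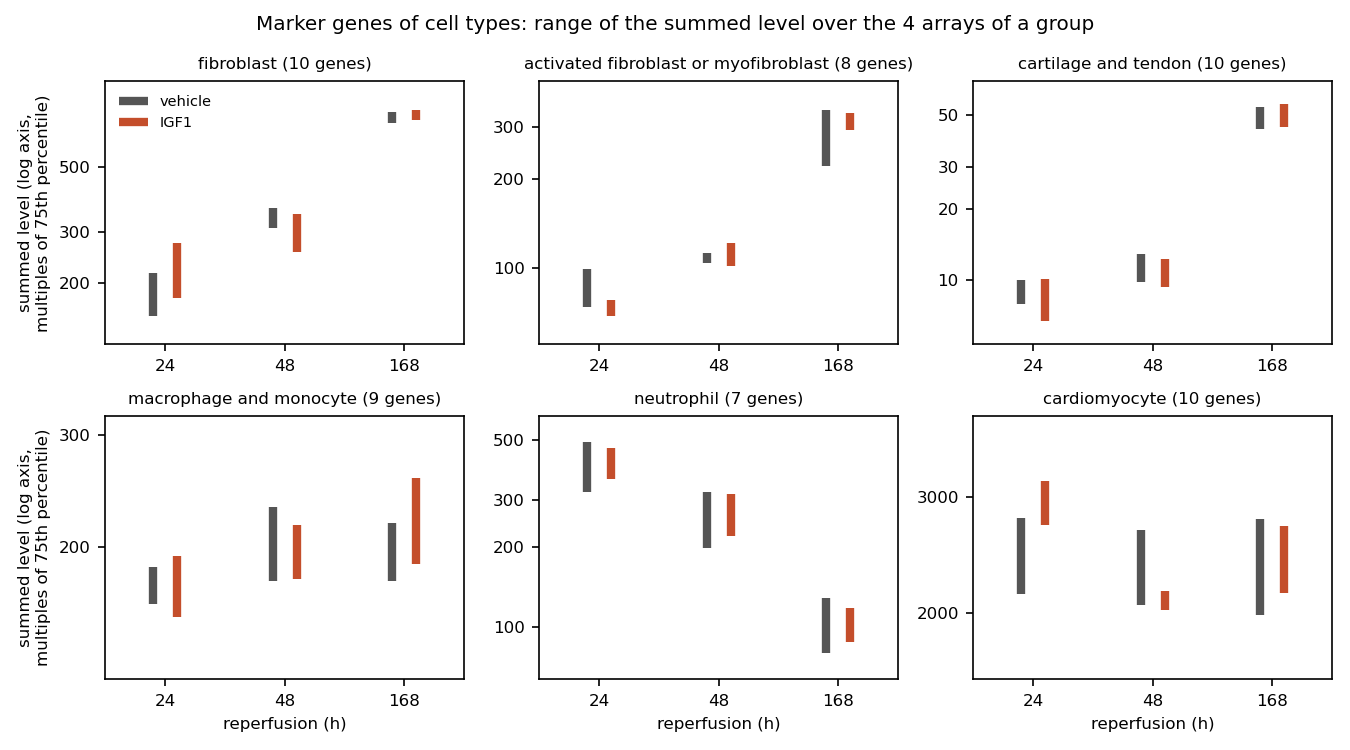
Range over the 4 arrays of a group of the summed level of marker genes of 6 cell types (multiples of the array's 75th percentile, log axis; times in h, spaced evenly; grey for vehicle, orange for IGF1). Fibroblast and cartilage and tendon markers are highest at 168 h and neutrophil markers lowest, while at 24 h the macrophage ranges of both treatments overlap.

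At 24 h, 8.76% of all genes were higher and 7.26% lower with IGF1, and the marker counts are read beside these shares. Among the markers, 5 of 9 macrophage and monocyte markers were lower and 1 higher with IGF1, although their sums of 155 to 194 with IGF1 and 163 to 186 with vehicle overlapped. Of 8 measured T, B and NK cell markers, 6 were lower, with sums of 2.97 to 3.32 against 4.08 to 5.19, and of 10 cardiomyocyte markers 6 were higher, with sums of 2720 to 3170 against 2140 to 2780. No fibroblast marker was lower and 1 of 10 was higher, and 1 of 8 markers of activated fibroblasts was lower, counts near the background. Of 6 measured platelet markers, 0 were called at 24 h, where their sums of 63.5 to 105 with IGF1 and 94.8 to 111 with vehicle overlapped. At 48 h 0 were called beside 0.0126% of all genes, so that count says little. Their sums at 48 h, 84.6 to 112 with IGF1 and 105 to 129 with vehicle, overlapped. Over time the platelet sums of vehicle hearts fell to 12.2 to 16.8 at 168 h.

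Genes whose levels ran most like each member were found by Pearson's r over the 24 arrays, which share the strong effect of time, so that high values are common and carry no test. Comp ran with Dkk3 (r = 0.996), Pdgfrl and Ecrg4, Thbs2 with Itgbl1 (0.99), Gas1 and Mfap2, and Thbs3 with Olfml2b (0.992), Mxra8 and Dkk3. Postn ran with Col5a2 (0.99), Ppic and Bgn, and Thbs4 with C1qtnf3 (0.984), Serpine2 and Fmod. Fn1 ran most closely with Csf1r (0.964), the receptor for macrophage colony-stimulating factor, then Rtl5 and P2rx7, and Tgfbi with Coro1a (0.986), an actin-binding protein of leukocytes, then Pgd and Sirpb1a. The closest genes to Thbs1 (Tlr2, 0.80), Tnc (Myef2, 0.888) and Sparc (Cyp17a1, 0.863) had lower values. Among the members themselves, Comp and Thbs3 ran at 0.987 and Comp and Tgfbi at -0.89.

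Other matrix genes were counted from lists, to be read beside the same shares of all genes. At 48 and 168 h none of the genes of these lists was called between IGF1 and vehicle. Of 19 measured other matricellular genes, 13 rose and 3 fell from 24 to 168 h in vehicle hearts, with a median difference of 1.49. The smallest p-values were those of Ogn, a small leucine-rich proteoglycan (12.1-fold higher), Fbln5, an elastic fibre protein (14.6-fold), Fstl1 (5.28-fold) and Sparcl1, the close relative of Sparc (3.51-fold). With IGF1 at 24 h, 5 of the 19 were higher and 0 lower, among them Tnxb, a tenascin (1.88-fold, limma adjusted p = 0.00916), Smoc2 (1.45-fold, 0.0101), Spock2 (1.63-fold, 0.0302) and Vtn, which encodes vitronectin (1.38-fold, 0.0399).

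Of 19 measured receptors of these proteins, 6 rose and 8 fell from 24 to 168 h in vehicle hearts, shares near the 28.1% of all genes called higher and 32.1% called lower. Itga5, the alpha chain of the main fibronectin receptor, fell 3.73-fold, Itga3 2.77-fold and Calr 2.12-fold, and Itgb5 was 2.84-fold higher. With IGF1 at 24 h, Cd36, a thrombospondin receptor and fatty acid transporter, was higher by 0.99 ± 0.15 (limma adjusted p = 0.000632). Itga4, a fibronectin-binding integrin chain of leukocytes, was lower by 1.01 (limma adjusted p = 0.00092), as were Stab1, a scavenger receptor that takes up Sparc, by 0.56 and Itgav by 0.32.

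Of 19 ligands, receptors and targets of transforming growth factor beta, 12 rose and 3 fell over the same span with vehicle, led by Tgfb3 (6.33-fold), Ltbp3 (6.09-fold), Ltbp4 (4.59-fold) and Ltbp2 (7.67-fold). With IGF1 at 24 h, Smad6, an inhibitory Smad, was higher by 0.79, and Ltbp2, Ltbp1 and Tgfb1 were lower by 0.62, 0.36 and 0.32. Of 14 fibrillar collagens and lysyl oxidases, 13 rose and 1 fell with vehicle, Col1a1 by 7.39-fold, Col1a2 by 5.97-fold and Col5a1 by 5.52-fold. The Col11a1 probe was well above background on 0 of the 4 vehicle arrays of 24 h. Its rise was thus at least 56.8-fold, taken against the lowest signal well above background on each of those arrays. This bound was not tested. The limma adjusted p of 2.25e-11 belongs to the measured difference of 6.72, which uses those dim values. The probe passed the filter on dim probes through the arrays of 168 h, where it was high, so a rise was partly set by the filter. With IGF1 at 24 h 0 of these 14 were called by limma, and 3 had an unadjusted p under 0.05, Col1a1, Col1a2 and Bmp1, at -0.35, -0.35 and -0.24 (adjusted p = 0.118, 0.125 and 0.127).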

How the data were processed

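Deposited scanner output of 24 one-colour Agilent mouse arrays, 1 per sample, held an intensity per spot that Feature Extraction 12.0.3.2 had corrected for background, per the file headers. Control and outlier spots (53 to 130 of 59305 per array) were left out, spots of a probe averaged, and log2 of the processed signal taken minus the array's 75th percentile over probes. The authors' deposited log2 value table differed from this by an offset per probe with a residual SD of at most 0.00126. Probes well above background on at least 4 arrays were kept, and the brightest probe stood for its gene. Of 56605 probes, 33767 matched 1 symbol through RefSeq accessions, 22838 none and 0 several. Groups were fitted together in limma 3.58.1 (R 4.3.3, lmFit and eBayes, 18 residual degrees of freedom, two-sided), p-values were adjusted by Benjamini-Hochberg across the 15875 genes, and the fit was tested on simulated data. The 4 arrays of a group limit the precision. At 168 h, same-numbered arrays of both treatments deviated together (r of 0.186 to 0.502 for the 4 numbers, each the highest for its own number), and they shared a slide. The members and the gene lists, with the naming of up to 4 genes of a list by smallest p, were chosen with earlier results of these data known. Alternatives were quantile normalization, normexp correction, other probe filters and probe rules, the slide or the replicate number as a block, array weights, fewer arrays, the authors' table and leaving out each array. The percentile over spots and the replicate number within each time were added after seeing the data.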

Additional observations from a re-analysis of the deposited data

Results flagged for a closer look

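The IGF1 effect differed between times by the F-test of the interaction for Fn1 (limma adjusted p = 0.0256), Tgfbi (0.0375) and Thbs1 (0.0415). Of 60 sets of 4 arrays (10 genes in 6 groups), 3 held 1 array far from the other 3 by Dixon's test, and chance gives about 1 in 20. Thbs1 stood at 4.01 on vehicle array 3 of 24 h, with the other 3 between 3.42 and 3.50. The dimmer second probe of Thbs1 did not set that array apart, at 1.94 beside 1.95 on array 2. Thbs2 stood at 0.28 on vehicle array 1 of 48 h, with the others between -0.11 and -0.07. Postn stood at 6.62 on vehicle array 4 of 168 h, with the others between 7.11 and 7.19. That array lay on slide 4 and the other 3 on slide 1, so array and slide cannot be told apart here.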

How the results depend on the processing

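Of 1816 values of single members under alternatives, 1741 kept direction and side of the threshold, 46 lost a call and 13 gained one. Another 16, none of them called in the main fit, changed sign. Of these, Sparc in IGF1 hearts from 24 to 48 h was called with quantile normalization and normexp (limma adjusted p = 0.0095 and 0.0311). With only the arrays of the groups compared, 1 member rather than 2 was called at 24 h (and 947 rather than 2542 of all genes), and with no filter on dim probes the F-test called 1 rather than 3 (406 rather than 889 of all genes). With array weights the change of the IGF1 effect from 48 to 168 h called 1 member, Thbs1 (limma adjusted p = 0.0379). Leaving out each array gave 1 to 2 members called at 24 h, 0 at 48 h, at 168 h and for the mean of times, and 0 to 3 for the F-test. Over time it gave 4 to 5, 8 to 8 and 8 to 8 in vehicle hearts (48 against 24 h, 168 against 48 h, 168 against 24 h) and 5 to 6, 9 to 10 and 8 to 9 in IGF1 hearts. The count over all genes for the mean of times, 75, ran from 15 to 129 without 1 array and from 30 to 172 in other settings. Sparc in IGF1 hearts from 24 to 48 h, -0.13, became 0.21 with quantile normalization, 0.21 with normexp and 0.20 with the mean of probes. Tnc in IGF1 hearts from 24 to 168 h, near 0, became 0.065, 0.088 and 0.051 in these settings, 0.22 and 0.088 with the slide as a fixed or random block and 0.036 with the percentile over spots. It ran from -0.17 to 0.16 without 1 array, and Sparc in vehicle hearts from 48 to 168 h from -0.051 to 0.11. The rise of Sparc from 24 to 168 h was called with quantile normalization, normexp and the mean of probes in both treatments (0.84 in vehicle hearts with the mean of probes). With the replicate number as a block, 2, 0 and 0 members were called at 24, 48 and 168 h and 3 by the F-test, which changed no call count. With the number as a block within each time the F-test called 2, without Tgfbi (limma adjusted p = 0.0636). At 24 h (r of -0.0495 to 0.134) and 48 h (-0.00493 to 0.112) not every same-numbered pair had r over 0.1, although at 48 h 3 of the 4 correlated best with their own number. The main fit did not take the numbers as pairs at any time. Its SE and p-values at 168 h thus leave out the r of 0.186 to 0.502 of same-numbered arrays there. The cause of these differences was not tested. With 4 arrays a group, the 95% interval of Comp between IGF1 and vehicle at 24 h ran from -0.89 to 0.97. A change of Comp of nearly 1 log2 unit either way could thus be missed.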
